A study of Homo sapiens with 30 samples.

Results

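The regions described here are nuclear off-target regions that were listed for 1 mitochondrial base editor and for none of the other 3 editors of the study. They were chosen by membership in the authors' deposited lists: class IND regions of the ND4, ND5.1 and ND6 lists, and all regions of the ND5.3 list, that overlapped no region of another list by 1 bp or more. Of the 1949 entries in the 4 lists, 256 met this rule, and ND4 contributed 8, ND5.1 42, ND5.3 107 and ND6 99. They are called list-only below, and class IND or ND5.3 regions that also stood in another list are called shared.

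Detect-seq, which labels deoxyuridine in DNA and pulls down the fragments that carry it, was run on 30 libraries of HEK293T, an established human embryonic kidney line. The libraries fell by their titles into 22 groups, 27 libraries being pulldown and 3 input. Each editor was a DdCBE, a split double-stranded DNA cytosine deaminase (DddA) whose parts are joined to a pair of TALE arrays aimed at an mtDNA site called ND4, ND5.1, ND5.3 or ND6. The only values given for the regions were in 4 final lists, 1 per editor, without values for single libraries.

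By their descriptions, 8 libraries of the L1397N orientation of the split deaminase belonged to each of ND4, ND5.1 and ND6. For each of these editors they comprised pulldown of the complete editor, its input, a pair titled Lipo2000, a library with dead DddA, and forms that lacked the left or the right TALE array and had an added MTS. ND4 had 2 further libraries of the L1397C orientation, and the ND5.3 libraries were 2, both L1397C. One further library labelled with ND6 held DddA parts free of TALE arrays with an added MTS, and 1 held GFP. The label of each library names its editor as the treatment, and the GFP library is labelled untreated. The sources used here do not say which of these libraries entered each list. Each list is pooled, so replicate error could not be computed for any value, and each test compares lists of regions rather than conditions over replicate cultures. ND5.3 differs from ND5.1 and ND6 in target and in orientation, and the effects of these cannot be told apart. The ND5.3 list names no classes, so its 107 regions may include kinds that were left out of the other lists, and it carries neither signal nor strand.

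DddA turns cytosine into uracil in double-stranded DNA and acts best on a cytosine that follows a thymine. Its parts are inactive until they meet, which normally happens where both TALE arrays bind side by side. In the nucleus, uracil is normally removed by base excision repair, which begins with uracil-DNA glycosylase.

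Base-level context was available for the 14 list-only regions that lay wholly in a RefSeq promoter window (GRCh38.p14, the build that hg38 stands for). These windows run from 250 bases before to 50 bases after a gene's start. They held 7 ND5.3 and 7 ND6 regions and none of ND4 or ND5.1. The 8 nearest to a start are printed because they show how a listed region sits on its bases. Each is written 5′ to 3′ on the strand whose cytosines bound the region, with the region in capitals and its flanks in lower case. The EEF1AKMT2 region is chr10:124791880-124791894 and spans the gene's start. The CHD8 region is chr14:21437259-21437268, and that at LOC105371622, inside CACYBP, is chr1:174999624-174999638. The TXLNA region is chr1:32179643-32179649 and the CDC40 region is chr6:110180367-110180381. The FAM200A, AAAS and ABCD4 regions are chr7:99552169-99552183, chr12:53321676-53321684 and chr14:74303010-74303023.
ND5.3 EEF1AKMT2 (minus strand): cgctcgtCCGCTCTGCCTGTGCcccgtct
ND6 CHD8 (plus strand): tccccctcctCCTGCGCAACctaacctgat
ND5.3 LOC105371622 (minus strand): ctttcgtCCGCTCTAGGACACCagacaca
ND6 TXLNA (plus strand): ctcgcttcgtCCTTCCCagcaagctcc
ND5.3 CDC40 (plus strand): atgtgttCCATTGCAATCTGTCaggacct
ND6 FAM200A (plus strand): tcggggtCCTCTCTAGGATCGCgggagga
ND6 AAAS (plus strand): aaagcttcttCCTGCGCCCcctggcggcc
ND5.3 ABCD4 (minus strand): cgcaccttCCTCTCTATCAAACgccgtctc

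In all 8 printed sequences the capitals began and ended with C, and a T stood just before the first C. In the 14 list-only regions with bases, both ends were C on 1 strand (10 on plus, 4 on minus), as they were in all 32 shared regions that could be read the same way. How positions count and which strand to read were settled on these same edge bases, so the C ends are a description. A T preceded the first C in 13 of the 14 list-only regions and in 32 of 32 shared ones. The exception was the ND6 region beside EIF3D, a subunit of a translation initiation factor, where an A preceded it. Across all 34943 promoter windows read on both strands, 20.8% of cytosines followed a T. The C at the other end of the region, the last one, followed a T in only 2 of 14 list-only and 6 of 32 shared regions. The edge read TCC in 12 of 14 list-only regions, with EIF3D and RMND1 as exceptions, and in 24 of 32 shared regions. In all windows 36.3% of TC steps were followed by C. The like counts at region edges are 12 of the 13 list-only regions with a preceding T and 24 of 32 shared ones. Where the file gave a strand, it was the strand bounded by C in 7 of 7 list-only ND6 regions and 32 of 32 shared regions. By the same reading, 4 of the 7 ND5.3 regions lay on the plus strand and 3 on the minus strand, although that list gives no strand. How the authors drew region edges is not given in the sources used here, and its part in these edge bases was not tested.

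Base composition varied widely among the 14. The median GC content was 63.3% (range 24.1 to 88.9%), against 65.3% in the 32 shared regions. It was 54.3% in the 7 ND5.3 regions and 70.0% in the 7 ND6 regions. The letters CANNAGNNG, taken from the core of the CTCF motif and searched on both strands, occurred in 6 of the 14 windows that held a list-only region (42.9%). They occurred in 18 of 32 windows with a shared region (56.2%) and in 50.3% of all windows. Regions outside promoter windows, including all those of ND4 and ND5.1, had no sequence to read here.

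The rule fixed how many regions each list contributed. List-only regions made up 8 of 36 class IND regions of ND4 (22.2%, 95% Wilson interval 11.7 to 38.1) and 42 of 333 of ND5.1 (12.6%, 9.47 to 16.6). They made up 107 of 611 ND5.3 regions (17.5%, 14.7 to 20.7) and 99 of 596 class IND regions of ND6 (16.6%, 13.8 to 19.8). The counts depend on which lists are compared: without the ND6 list ND5.3 had 323 list-only regions, and without the ND5.3 list ND6 had 315. Intervals cover counting error over regions only. Membership was sharply divided: all 1320 shared entries, 512 distinct regions, matched another list in both start and end. The closest list-only region to a non-overlapping region of another list was 14 bp away, with 13 bases between them, and the next 380 bp away.

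List-only regions of ND4 and ND5.1 were wider than 20 bp more often than those of ND5.3 and ND6. The widths of the 8 ND4 regions ran from 12 to 49 bp with a median of 34 bp. The 42 ND5.1 regions ran from 11 to 49 bp with a median of 24 bp. The 107 ND5.3 regions ran from 7 to 51 bp and the 99 ND6 regions from 5 to 40 bp, each with a median of 16 bp. The ranges overlapped, and the middle of the ND4 regions (quartiles 26.8 and 37.5 bp) lay above that of ND6 (13 and 22 bp). The shared regions of the same lists had medians of 24.5, 19, 18 and 18 bp.

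Regions wider than 20 bp were 7 of 8 in ND4 (87.5%, 52.9 to 97.8) and 27 of 42 in ND5.1 (64.3%, 49.2 to 77.0). They were 43 of 107 in ND5.3 (40.2%, 31.4 to 49.7) and 28 of 99 in ND6 (28.3%, 20.4 to 37.8). Of the 6 pairs of lists, 4 differed by Fisher's exact test, two-sided, with Benjamini-Hochberg adjustment over the 6 pairs. ND5.1 exceeded ND6 by 36.0 percentage points (Newcombe 95% interval 18.1 to 51.0, exact adjusted p = 0.000737). ND5.1 exceeded ND5.3 by 24.1 points (6.26 to 39.6, exact adjusted p = 0.0210). ND4 exceeded ND6 by 59.2 points (23.3 to 72.2, exact adjusted p = 0.00467) and ND5.3 by 47.3 points (11.5 to 60.8, exact adjusted p = 0.0306), on 8 regions. ND5.3 and ND6 differed by 11.9 points (-1.08 to 24.3, exact adjusted p = 0.0958), and ND4 and ND5.1 by 23.2 points (-13.6 to 41.5, exact adjusted p = 0.409). With a limit of 15 bp, 2 of the 6 pairs differed, as ND5.1 exceeded ND5.3 by 26.7 points and ND6 by 28.4 points (exact adjusted p = 0.00794 for each). ND4 no longer differed past the threshold from ND6 (35.0 points, exact adjusted p = 0.143) or from ND5.3 (33.3 points, exact adjusted p = 0.203). With a limit of 25 bp, ND5.1 exceeded ND5.3 by 15.8 points (exact adjusted p = 0.0782), and ND5.3 exceeded ND6 by 15.99 points (exact adjusted p = 0.00684; Fisher's exact test for each).

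Set against the shared regions of the same list, list-only regions were not shown to differ in width. The share wider than 20 bp was higher by 18.9 points in ND5.1 (2.75 to 32.8, exact adjusted p = 0.105) and by 19.6 points in ND4 (-17.8 to 40.8, exact adjusted p = 0.529). It was lower in ND6, by -10.8 points (-19.8 to -0.320, exact adjusted p = 0.105), and 0.703 points higher in ND5.3 (-9.10 to 11.1, exact adjusted p = 0.914; Fisher's exact test, adjusted over the 4 lists). Whether these contrasts differ between lists was not tested. Among shared regions the share of wide ones differed with the number of lists. In ND6, 30.4% of regions found in 1 other list, 43.8% of those in 2 and 70.8% of those in all 4 lists were wider than 20 bp. The 28.3% of ND6 list-only regions stood near the first of these values. In ND5.1 the same shares were 31.6, 44.0 and 70.8%, with 64.3% among list-only regions. The 24 regions in all 4 lists are the same in each of these series. Those in 2 other lists, 248 in ND5.1 and 249 in ND6, are also largely the same regions. The 2 series are therefore not independent, and these shares were not tested.

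How the signal that the authors deposited for each region bears on which regions were listed is not stated, so it is given as a description. Its scale is not stated and its levels are not comparable between lists. The 8 ND4 list-only regions had signals from 4.78 to 19.97 with a median of 7.22. The 42 ND5.1 regions ran from 4.32 to 44.4 with a median of 10.9, and the 99 ND6 regions from 4.16 to 19.2 with a median of 6.37. Shared regions of these lists had medians of 5.46, 12.7 and 11.97. In ND6 the list-only regions sat low in their list: 12 of 99 (12.1%) lay above the list's median signal, against 64.8% of the shared regions, and none ranked among the 50 highest. In ND5.1, 21 of 42 lay above the list's median and 5 among the 50 highest, against 175 and 36 of the 291 shared regions. In ND4, 4 of 8 lay above the median of the 83 regions, against 9 of 28 shared regions.

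Across list-only regions, Spearman's rho between width and signal was 0.48 in ND5.1 (42 regions), 0.57 in ND4 (8 regions) and 0.12 in ND6 (99 regions). Among shared regions rho was 0.30 in ND4, 0.22 in ND5.1 and 0.34 in ND6. Regions of 1 list share their libraries and depth. The part of signal in the width differences between lists was not tested.

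All 8 ND4 regions are named. The highest signal, 19.97 (rank 6 of 83), was at chr1:58986899-58986947, between genes and 12670 bp from the pseudogene PHB1P3. It was also the widest, at 49 bp. The second, at 11.8 (rank 16), lay in RNF217, a ubiquitin ligase of the RING type (chr6:125054981-125055013). A region 13 bp outside LOC124909486 (chr3:113207343-113207384) had a signal of 8.21. One in DIAPH1, a formin that nucleates actin filaments (chr5:141552359-141552385), had 7.95 and lay 39857 bp from a region in the other 3 lists. The region beside RTL9, 1284 bp away on X (chrX:110457618-110457652), had 6.48. The region in KIAA0319L, a membrane protein used as a receptor by adeno-associated virus (chr1:35499105-35499116), had 5.25 and at 12 bp was the narrowest. RCN2, a calcium-binding protein of the endoplasmic reticulum (chr15:76932552-76932587), held a region of signal 5.096 whose edge lay 803 bp into the gene. HIGD2B (chr15:72679996-72680021) held the lowest, 4.78. Thus 5 of the 8 lay in protein-coding genes, and 6 of 8 were on the minus strand.

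Of the 42 ND5.1 regions, the highest signal was 44.4 (rank 21 of 539) in the long noncoding RNA gene FALEC at chr1:150532639-150532682. The next was 43.0 (rank 27) between genes, 15205 bp from the tRNA gene TRQ-TTG4-1. ZNF341, a zinc-finger transcription factor, held a region of signal 39.4 at chr20:33733891-33733930. GPC6, a glypican of the cell surface, held one of 34.2 and SSPN, sarcospan of the muscle membrane complex, one of 33.7. These 5 highest regions were 34 to 49 bp wide, above the ND5.1 list-only median of 24 bp. The next were near SERBP1, 28566 bp away (25.5), near LOC105371318 (22.4), in LOC124904588 (21.1), near SP3 (18.6) and in BLACAT1 (18.3). Only 4 ND5.1 list-only regions lay within 1 kb of a protein-coding gene end. They were in METTL2B, a tRNA methyltransferase (550 bp, signal 4.96), beside TANC1, a synaptic scaffold (743 bp, 16.4), in ARF3 and FKBP11 (840 bp, 6.04) and beside NEGR1 (960 bp, 5.82).

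Of the 99 ND6 regions, the highest signal was 19.2 (rank 138 of 716), where the noncoding genes LINC00469 and LINC02092 overlap at chr17:73796899-73796935. That region was 37 bp wide. All others were at or below 11.3. The next were in SGCZ, a sarcoglycan (11.3), near VTRNA3-1P (11.2), in DIDO1 (11.2), in CDHR1, a photoreceptor cadherin (11.1), near LOC105372839 (10.9), in ADCY8, an adenylyl cyclase (10.6), and in BPESC1 (10.2). FBXL19 (9.73) and LOC105371657 (9.65) completed the 10 highest. None of these 10 lay within 1 kb of a protein-coding gene end, where 15 of all 99 ND6 list-only regions (15.2%) lay. Whether signal and nearness to gene ends are linked was not tested.

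A different set of ND6 regions lay at gene ends. Nearest were TXLNA, a syntaxin-binding protein (26 bp, signal 5.97), LIPE, hormone-sensitive lipase (42 bp, 9.38), and PEX3, needed to build peroxisomal membranes (59 bp, 7.62). AAAS, a nuclear pore protein (66 bp, 6.94), EIF3D (95 bp, 5.29) and CBLB, a ubiquitin ligase of immune signalling (144 bp, 5.81), followed. COPS7A, a COP9 signalosome subunit (165 bp, 9.35), the CNPY4 and TAF6 overlap (174 bp, 5.40), FDXR, the mitochondrial ferredoxin reductase (403 bp, 8.01), and DDX17, an RNA helicase (406 bp, 8.52), completed the 10 nearest by the naming rule. Distances are to either bound of the named gene, which need not be the start that the promoter table gives.

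The ND5.3 list gives no signal, so its 107 regions are named by gene ends. The region in EEF1AKMT2, a methyltransferase of translation elongation factor eEF1A, spanned the gene's bound. That at VRTN and ABCD4 lay 17 bp from an end of VRTN and 76 bp before the start of ABCD4, a transporter needed for vitamin B12. Others lay beside CDC40, a splicing factor (46 bp), RMND1, a factor of mitochondrial translation (90 bp), and UROD, an enzyme of heme synthesis (97 bp). GRN, the gene of progranulin, was 177 bp away and CACYBP 189 bp. SLC35E2B (273 bp), RAB11B, a GTPase of recycling endosomes (374 bp), PPP1R8, a phosphatase inhibitor (600 bp), and HES7, a clock gene of somite formation (617 bp), came next. FAM174C (630 bp), ERBB3, a receptor of the EGFR family (665 bp), FRA10AC1 (813 bp) and AP1AR (862 bp) closed the set. The widest of these 15 was that beside GRN, at 35 bp, and the narrowest that beside ERBB3, at 9 bp.

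List-only regions of the 4 editors lay in genes at shares of 59.8 to 62.6%, and no difference passed the test. They lay in the body of a RefSeq gene of any kind in 5 of 8 for ND4 (62.5%), 26 of 42 for ND5.1 (61.9%), 64 of 107 for ND5.3 (59.8%) and 62 of 99 for ND6 (62.6%). Over all 256 the share was 61.3% (95% Wilson interval 55.2 to 67.1), against 287 of 512 shared regions (56.1%). None of the 6 pairs of lists differed by Fisher's exact test (adjusted p = 1 for each). The narrowest interval was that of ND5.3 minus ND6, -2.81 points (-15.8 to 10.4). Set against shared regions of the same list, differences were 3.86 to 12.5 points, with adjusted p = 0.695 in each of the 4 Fisher's exact tests. Of the 256, 123 lay in protein-coding genes (48.0%), 34 only in other genes, 30 of these with a long noncoding RNA, and 99 between genes (38.7%).

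No difference in nearness to gene ends passed the test. Within 1 kb of either bound of a protein-coding gene lay 2 of 8 ND4 regions (25%), 4 of 42 ND5.1 regions (9.52%), 15 of 107 ND5.3 regions (14.02%) and 15 of 99 ND6 regions (15.2%). Over all lists it was 36 of 256 (14.1%), against 59 of 512 shared regions (11.5%). Adjusted p was 0.732 to 0.846 for the 6 pairs and 0.795 to 0.800 against shared regions (Fisher's exact test). The largest difference, ND4 over ND5.1 by 15.5 points, had an interval of -6.34 to 50.03.

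Where the promoter table gives a gene's start, 34 of 247 list-only regions (13.8%) were within 1 kb of one, 21 before or across it and 13 after it. Of these 34, 16 were within 250 bp: 7 of ND5.3, 9 of ND6 and none of ND4 or ND5.1. Among shared regions, 47 of 489 (9.61%) were within 1 kb and 31 within 250 bp. The counts within 1 kb of a start were added after seeing the data. No pair of lists differed in them (exact adjusted p = 0.837 to 1), and the list-only share exceeded the shared one by 5.21 points in ND5.3 and 6.08 points in ND6 without passing (exact adjusted p = 0.301 for each, Fisher's exact test). The counts within 250 bp were not tested.

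No difference in strand passed the test among the 3 lists that give it. The plus strand held 2 of 8 ND4 regions (25%), 23 of 42 ND5.1 regions (54.8%) and 50 of 99 ND6 regions (50.5%). The 3 pairs had adjusted p from 0.408 to 0.714, and ND5.1 exceeded ND6 by 4.26 points (-13.4 to 21.3; Fisher's exact test). Among list-only regions above their list's median signal, the plus strand held 66.7% in ND5.1 (21 regions) and 33.3% in ND6 (12 regions), a difference of 33.3 points (exact adjusted p = 0.248). Against shared regions of the same list, adjusted p was 0.771 to 1. Where the file strand and the strand of the gene around it were both known, 34 of 71 list-only regions lay on the gene's strand. By list they were 2 of 5 in ND4, 9 of 21 in ND5.1 and 23 of 45 in ND6. Among shared regions the counts were 6 of 10 in ND4, 63 of 116 in ND5.1 and 94 of 180 in ND6. The same shared region can be counted in more than 1 of these lists, and the shares were not tested.

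Most list-only regions stood more than 100 kb from any region of another editor, as did most shared regions. A region of another list lay within 100 kb of 2 of 8 ND4 regions (25%, 95% Wilson interval 7.15 to 59.1) and 7 of 42 ND5.1 regions (16.7%, 8.32 to 30.6). The numbers were 11 of 107 for ND5.3 (10.3%, 5.84 to 17.5) and 16 of 99 for ND6 (16.2%, 10.2 to 24.7). Median distances were 894998, 562336, 721584 and 647936 bp. The other lists offered 1866, 1410, 1338 and 1233 entries to be near to, so the editors were not tested against each other. Shared regions of the same lists were counted against entries they did not overlap. Their shares were 14.3% in ND4, 13.4% in ND5.1, 15.5% in ND5.3 and 13.7% in ND6. List-only minus shared differences were -5.20 to 10.7 points (adjusted p = 0.631 in each of the 4 Fisher's exact tests).

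Within 1 kb there were 3 list-only regions with such a neighbour. In FBXL19, an F-box protein that binds CpG islands, the ND5.3 region chr16:30935304-30935321 and the ND6 region chr16:30935335-30935350 had 13 bases between them. The ND6 region was on the minus strand with signal 9.73 (rank 332). FBXL19 was also the only gene that held more than 1 list-only region. The ND5.3 region beside CDC40 lay 380 bp from chr6:110179973-110179987, a region found in all 4 lists. In SMYD2, a lysine methyltransferase, the ND6 region chr1:214331995-214332019 was on the plus strand and lay 1093 bp from chr1:214333112-214333129, a minus-strand region in 3 lists.

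Further neighbours within 11 kb were of several classes, and how often each class occurred was not tested. The ND6 region beside EIF3D was 5189 bp from an ND5.1 region of class IND.Extend within EIF3D. That in PSD was 6000 bp from one of the same class in NFKB2. The ND5.1 region in PTK7, a receptor of planar cell polarity signalling, was 7395 bp from an ND6 region of class DL in the same gene. The ND6 region in LOC102724382 was 6950 bp from a region shared by ND5.3 and ND6, and that beside FDXR 10982 bp from one in 3 lists. Among pairs in which both regions were list-only, those in FALEC (ND5.1) and ADAMTSL4 (ND6) were 27399 bp apart.

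List-only regions were also counted in the genes of 6 lists that relate to the editors' setting. For scale, 123 of 256 list-only and 222 of 512 shared regions lay in any of the 19821 protein-coding genes used. Of 75 nuclear genes of oxidative phosphorylation subunits, 30 of mtDNA maintenance and expression, and 24 of uracil and base excision repair, 0 held a list-only region, while shared regions inside them numbered 2, 0 and 0. Of 20 genes of chromatin architecture, 2 held one: BPTF, of the NURF remodelling complex (ND5.3, chr17:67963458-67963466, 9 bp wide), and CHD8, a chromatin remodeller (ND6, signal 6.31), whose sequence is printed above. No shared region lay in those 20 genes. Of 62 cancer genes, NF2, which encodes merlin, held 1 (ND6, chr22:29604068-29604086, signal 7.74), and 1 shared region lay in such a gene. Of 30 synaptic adhesion and large neuronal genes, 0 held a list-only region and NEGR1 had 1 at 960 bp, while 7 shared regions lay in such genes. Gene lengths differ between these lists, the counts are small, and neither a lack nor an excess was tested.

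By chromosome, the largest share was on chromosome 1, with 38 of 256 list-only regions (14.8%) against 12.7% of the 512 shared regions. Chromosomes 3 and 5 followed with 20 and 18. ND6 had 0 list-only regions on chromosomes 2 and 4, where ND5.3 had 6 and 4. These chromosomes held 3.91 and 2.34% of all list-only regions and 5.86 and 3.52% of shared ones. ND5.3 had 0 on chromosomes 7, 20 and 21, where ND6 had 4, 5 and 4. These held 2.34, 2.73 and 1.95% of all list-only regions and 5.08, 2.73 and 0.781% of shared ones. The counts are small, were picked from all chromosomes and were not tested.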

How the data were processed

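Detect-seq lists of HEK293T cells were analysed as deposited. The tools named, per the submitters' processing notes, are Bowtie2, cutadapt, Picard and SAMtools, and the build is hg38. The sources used here give neither their versions and roles, nor how regions were called or what the classes mean. Per the file headers, the ND4, ND5.1 and ND6 lists hold a signal value for each region, whose normalization the authors did not state, and a strand. Depth per library is unknown and pooling of replicates is not described. Whether the 30 libraries came from separate cultures is not stated.

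The bases at region edges showed that starts and ends count from 1 and are both included, so width is end minus start plus 1 bp. Distance is the start of one region minus the end of the other. Regions were matched to 58419 of 59792 RefSeq genes (GRCh38.p14) on the 22 autosomes and X, 19821 of them protein-coding. That table has bounds without strand or exons, so a gene end means either bound. Parts of genes (exons, introns, UTRs) were not analysed. Starts came from the promoter table, which has no window for chromosome 8 and gave a strand for 27197 of the genes used.

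Shares have 95% Wilson intervals and their differences Newcombe intervals. Fisher's exact test was two-sided, with Benjamini-Hochberg adjustment within each family of pairs or lists and a threshold of 0.05 (python 3.11.15, pandas 2.3.3, scipy 1.17.1, statsmodels 0.14.6). The procedure was tested on simulated data. Members, the 6 gene lists (241 genes, all with a position) and tests were chosen with earlier results of these data known.

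Named regions were all 8 of ND4; for ND5.1 and ND6 the 10 of highest signal and up to 10 more nearest to, and within 1 kb of, a protein-coding gene end; for ND5.3 the 15 nearest to such an end. The 10 nearest to another list's region, genes holding 2 or more list-only regions and genes of the 6 lists were also named. Up to 8 sequences wholly in a promoter window were printed, by distance to the start. Alternatives changed the overlap that counts as shared, the classes that count, the gene kinds, distances, widths and signal range used. Of the named regions, that on chromosome 8 among the 10 nearest to another list is not described.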

Additional observations from a re-analysis of the deposited data

How the results depend on the processing

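Of 92 alternative values of differences between shares, 75 kept their direction and side of the threshold, 13 turned direction, 3 lost the call and 1 gained it. No difference that turned had passed the threshold. In gene bodies, ND4 minus ND5.1 was -7.14 points above the median signal. With protein-coding genes alone, ND4 minus ND6 was 16.04 and ND5.1 minus ND6 was 8.30. With transcription starts in place of gene ends, an alternative added after seeing the data, ND4 minus ND5.3 was -2.06 and ND4 minus ND6 was -3.29. For width, 2 pairs passed at 15 bp (ND5.1 minus ND5.3 and ND5.1 minus ND6), while ND4 minus ND5.3 (33.3) and ND4 minus ND6 (35.0) lost the call. List-only minus shared in ND5.3 was then -8.69. At 25 bp, ND5.1 minus ND5.3 (15.8) lost the call and ND5.3 minus ND6 (15.99) gained it. On strand, ND5.1 list-only minus shared was 15.8 above the median signal. For nearness, list-only minus shared was -3.57 within 10 kb and -1.79 within 1 Mb in ND4, -9.82 within 1 Mb and -0.81 against class IND and ND5.3 regions alone in ND5.1, and 0.82 within 10 kb and 2.18 within 1 Mb in ND5.3. The cause of these changes was not tested. The share with a neighbour in ND4, ND5.1, ND5.3 and ND6 was 0, 2.38, 2.80 and 5.05% within 10 kb and 62.5, 52.4, 64.5 and 59.6% within 1 Mb, as a wider window holds more regions by construction. Without the ND6 list, ND5.3 had 323 list-only regions, and without the ND5.3 list ND6 had 315 (both added after seeing the data). The other 26 of 28 alternative counts of list-only regions moved less than these. The restriction to signals above the median gave no ND5.3 value, since that list has no signal. No paired analysis was possible because no list holds values of single replicates, and for the same reason no replicate could be left out. ND4, with 8 regions, limits every comparison it enters. Depth behind the lists is unknown.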
